A study of Rhodotorula toruloides with 2 samples.

Results

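Membrane lipid remodelling and glycerolipid genes of Rhodotorula toruloides, an oleaginous (oil-storing) red yeast that the study calls Rhodosporidium toruloides, are described here in RNA sequencing libraries from chemostats, cultures kept in steady growth by a constant inflow of medium. The 4 genes were taken by identifier from the 1402 genes that the authors' deposited table lists. By KEGG description they are a glycerophosphodiester phosphodiesterase (RHTO_01245), a betaine lipid synthase (RHTO_03325), a lipin-type phosphatidate phosphatase (RHTO_04894) and a glycerol-3-phosphate dehydrogenase (RHTO_07665). The best BLAST hit carries the same name only for RHTO_07665. Both libraries are from the wild-type strain AS 2.1389. One carries the label Pi-limited (inorganic phosphate limiting) and the other the label Pi-replete. With 1 library per condition and no replicate, no difference below has a replicate check, and every 95% interval covers counting error only. The study compared the conditions to follow lipid accumulation under phosphate limitation.

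Phospholipids hold a large part of the phosphorus of a cell's membranes. When phosphate is scarce, many fungi and algae are known to break down phospholipids and to build membranes from lipids that hold no phosphorus. Lipases strip the fatty acids from a phospholipid, and glycerophosphodiester phosphodiesterases split what remains into glycerol 3-phosphate and an alcohol such as choline. Lipin-type phosphatases remove the phosphate from phosphatidate and give diacylglycerol, from which phospholipids, triacylglycerol (the storage lipid of oleaginous yeasts) and betaine lipids are all made. Glycerol 3-phosphate is in turn the backbone from which phosphatidate is built, and it can be oxidised by glycerol-3-phosphate dehydrogenase instead.

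Values are raw counts and RPKM, the count scaled to gene length and to the library total. The library totals were 5892590 counts (labelled Pi-limited) and 5641377 counts (labelled Pi-replete), as recovered from the deposited values. Every listed gene differs at least 2-fold, since the table was filtered at that ratio, so that the 4 genes are past it by construction. The authors' table lists 17.6% of the 7970 genes tested, with 7.34% of the tested genes lower and 10.3% higher in the Pi-limited-labelled library. The phosphate uptake gene checked here ran against the labels. Other phosphate acquisition genes are not described here and could run against the labels too. The sodium:Pi symporter RHTO_01284, a type of gene that fungi are known to induce when phosphate is short, had 22 counts in the Pi-limited-labelled library and 5797 counts in the Pi-replete-labelled library. The deposited column names are control_F3A for the Pi-limited-labelled library and P0A for the Pi-replete-labelled library. Whether the labels are exchanged was not tested, and directions below follow the labels as given.

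All 4 genes were lower in the Pi-limited-labelled library than in the Pi-replete-labelled library. Among all listed genes 41.7% were lower there. The 4 genes held 1760 counts in the Pi-limited-labelled library and 4343 counts in the Pi-replete-labelled library, and their median log2 ratio (labelled Pi-limited over labelled Pi-replete) was -1.74, beside 1.10 over all listed genes. They formed a pair with a difference of about 5-fold (the phosphodiesterase and the betaine lipid synthase) and a pair just past 2-fold (lipin and the dehydrogenase). The genes were chosen with results of these libraries known, and nothing about phosphate supply is read from their shared direction.

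**Figure D1:**
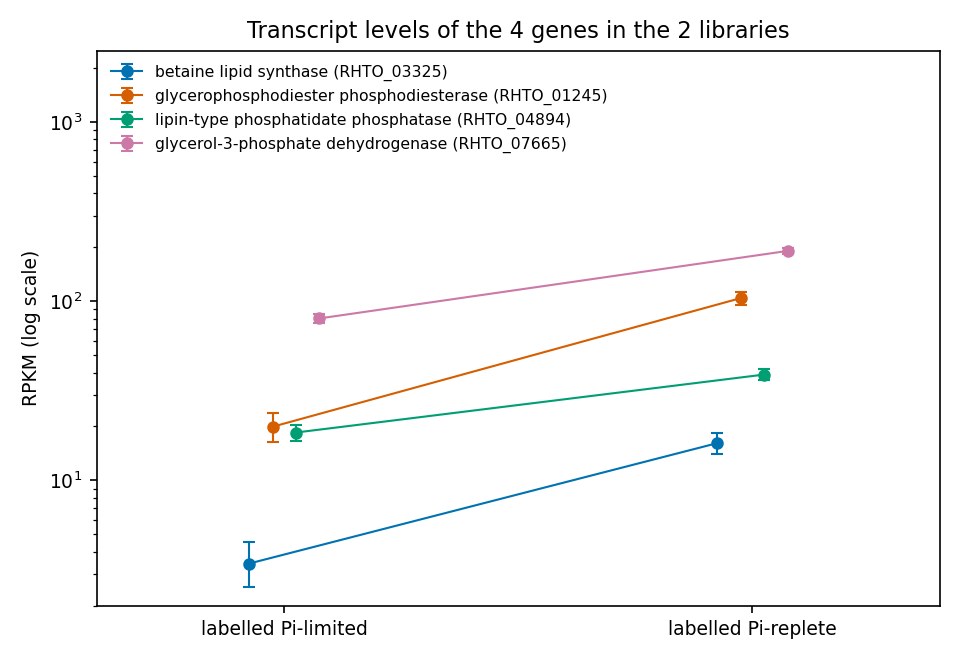
RPKM (log scale) of the 4 genes in the Pi-limited-labelled library and the Pi-replete-labelled library, with 1 library per label. Bars are exact 95% Poisson intervals of the count, and lines join the values of a gene. Each gene is lower on the left, from 3.44 RPKM for the betaine lipid synthase to 80.2 RPKM for glycerol-3-phosphate dehydrogenase.

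The glycerophosphodiester phosphodiesterase RHTO_01245 acts last in phospholipid breakdown, after the fatty acids have been removed. It had 117 counts and 19.9 RPKM (95% interval 16.5 to 23.9) in the Pi-limited-labelled library, against 585 counts and 104.1 RPKM (95.8 to 112.9) in the Pi-replete-labelled library. Neither interval reaches the other. The difference was 5.22-fold (4.28 to 6.43), lower in the Pi-limited-labelled library, the largest of the 4. Of the 585 listed genes that were lower there, 63.9% differed by less. Its level stood above 48.1% of listed genes in the Pi-limited-labelled library and above 83.3% in the Pi-replete-labelled library. In the authors' deposited table the FDR was 4.5e-79, from a test that compares these 2 libraries and not the conditions.

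The betaine lipid synthase RHTO_03325 is described by KEGG alone, and its best BLAST hit is an unnamed protein of a related yeast. Such enzymes, known as BTA1 in the alga Chlamydomonas, join a headgroup made from S-adenosylmethionine to diacylglycerol and give a membrane lipid with no phosphorus. It had 50 counts and 3.44 RPKM (2.55 to 4.53) in the Pi-limited-labelled library, against 225 counts and 16.2 RPKM (14.1 to 18.4) in the Pi-replete-labelled library. This is the least abundant of the 4 transcripts in both libraries. Its difference was 4.70-fold (3.45 to 6.52), lower in the Pi-limited-labelled library, with the widest interval of the 4 because its counts are the fewest. Its level was above 13.0% of listed genes in the Pi-limited-labelled library and above 48.3% in the Pi-replete-labelled library. The FDR in the authors' deposited table was 1.28e-28. Together with the phosphodiesterase it is one of 2 genes here that differ at least 4-fold, a size that 3.48% of the genes tested by the authors reached in this direction.

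The lipin-type phosphatidate phosphatase RHTO_04894 is of the enzyme class of Pah1 in Saccharomyces cerevisiae by its KEGG description (EC 3.1.3.4). Its product, diacylglycerol, is the substrate of the betaine lipid synthase as well as of triacylglycerol synthesis. It had 371 counts and 18.5 RPKM (16.7 to 20.5) in the Pi-limited-labelled library, against 748 counts and 39.0 RPKM (36.2 to 41.9) in the Pi-replete-labelled library. The difference was 2.11-fold (1.86 to 2.39), lower in the Pi-limited-labelled library. It lay 0.074 past the authors' limit on the log2 scale, and the lower bound of its interval is under 2-fold. Of the listed genes that were lower in the Pi-limited-labelled library, 6.50% differed by less. The FDR in the authors' deposited table was 1.14e-32.

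The glycerol-3-phosphate dehydrogenase RHTO_07665 carries the number EC 1.1.5.3 and a gene ontology term for quinone or similar acceptors. This is the enzyme class of Gut2 in S. cerevisiae, which sits at the mitochondrial inner membrane, oxidises glycerol 3-phosphate to dihydroxyacetone phosphate and passes the electrons to the respiratory chain. It is thus not the NAD-linked enzyme that makes glycerol 3-phosphate for lipid assembly. It had 1222 counts and 80.2 RPKM (75.8 to 84.8) in the Pi-limited-labelled library, against 2785 counts and 190.9 RPKM (183.9 to 198.1) in the Pi-replete-labelled library. It was the most abundant of the 4 in both libraries, above 83.1% of listed genes in the Pi-limited-labelled library and above 90.4% in the Pi-replete-labelled library. The difference was 2.38-fold (2.22 to 2.55), lower in the Pi-limited-labelled library, and it is the most precisely counted of the 4. Its FDR in the authors' deposited table was 8.41e-152.

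**Figure D2:**
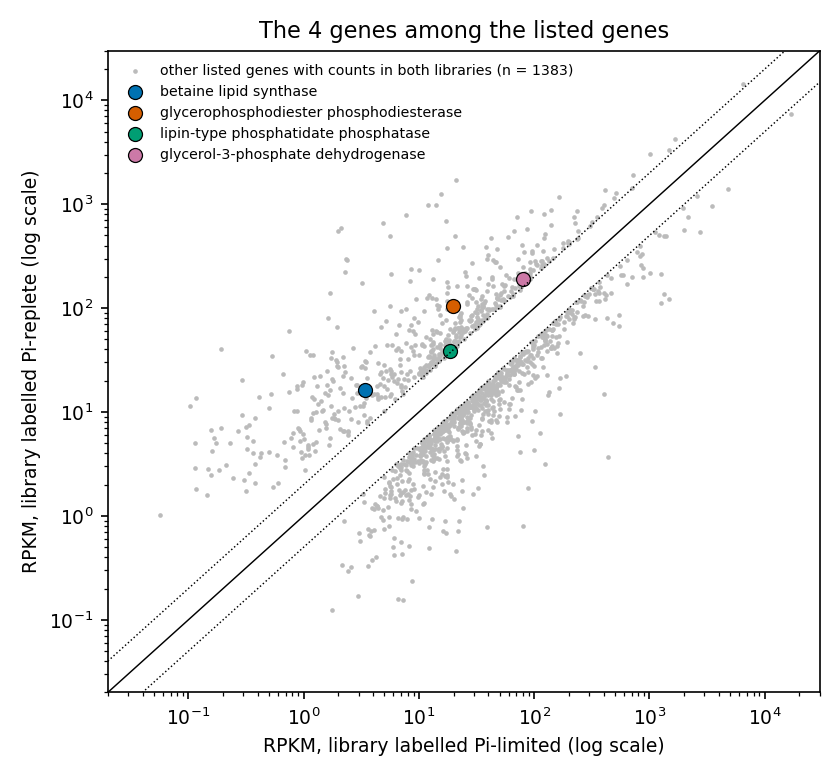
RPKM of listed genes in the Pi-limited-labelled library (horizontal, log scale) and the Pi-replete-labelled library (vertical, log scale). Grey points are the 1383 other listed genes with counts in both libraries, the solid line marks equal levels and the dotted lines a 2-fold difference, inside which no gene is listed. The 4 genes lie above the upper dotted line, with lipin closest to it.

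Ratios between the 4 genes do not depend on how the libraries are scaled, because any scaling factor cancels. Of the 6 pairs, 4 had an interval for the ratio of their differences that did not hold 1. The difference of the phosphodiesterase was 2.48 times that of lipin (1.95 to 3.16) and 2.19 times that of the dehydrogenase (1.77 to 2.73). For the betaine lipid synthase these ratios were 2.23 (1.59 to 3.17) against lipin and 1.97 (1.44 to 2.76) against the dehydrogenase. Within each of the pairs named above no such gap was detectable at this depth. The phosphodiesterase differed by 1.11 times as much as the betaine lipid synthase (0.754 to 1.62), and the dehydrogenase by 1.13 times as much as lipin (0.978 to 1.30). Spread between cultures was not measured and could widen every one of these intervals.

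The order of the levels was the same in both libraries, with the dehydrogenase highest, then the phosphodiesterase, lipin and the betaine lipid synthase. Neighbours in that order were not equally spaced. The RPKM of the phosphodiesterase was 1.08 times that of lipin in the Pi-limited-labelled library (0.867 to 1.33), so that these neighbours were not told apart there, and 2.67 times (2.39 to 2.98) in the Pi-replete-labelled library. The dehydrogenase stood 4.02 times above the phosphodiesterase (3.33 to 4.91) in the Pi-limited-labelled library and 1.83 times (1.68 to 2.01) in the Pi-replete-labelled library. Lipin stood 5.39 times above the betaine lipid synthase (4.00 to 7.39) in the Pi-limited-labelled library and 2.41 times (2.08 to 2.81) in the Pi-replete-labelled library. From the highest to the lowest of the 4, the span was 23.3-fold in the Pi-limited-labelled library and 11.8-fold in the Pi-replete-labelled library.

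The sizes of the 4 differences depend on how the libraries are scaled. Their direction could not turn under the 3 other scalings tried, since none shifts a log2 ratio upward by as much as 1 and every listed gene is past that size. Giving the listed genes equal totals shifted every log2 ratio by 0.31 and left lipin 1.70-fold and the dehydrogenase 1.92-fold lower in the Pi-limited-labelled library. The same scaling left the phosphodiesterase 4.21-fold and the betaine lipid synthase 3.79-fold lower. Setting the median of the listed genes to 0 shifted every ratio by -1.10, which brought lipin to 4.51-fold, the dehydrogenase to 5.10-fold, the betaine lipid synthase to 10.1-fold and the phosphodiesterase to 11.2-fold lower. Equal totals over the genes that are not listed, a setting chosen after seeing the data, shifted ratios by only -0.054.

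**Figure D3:**
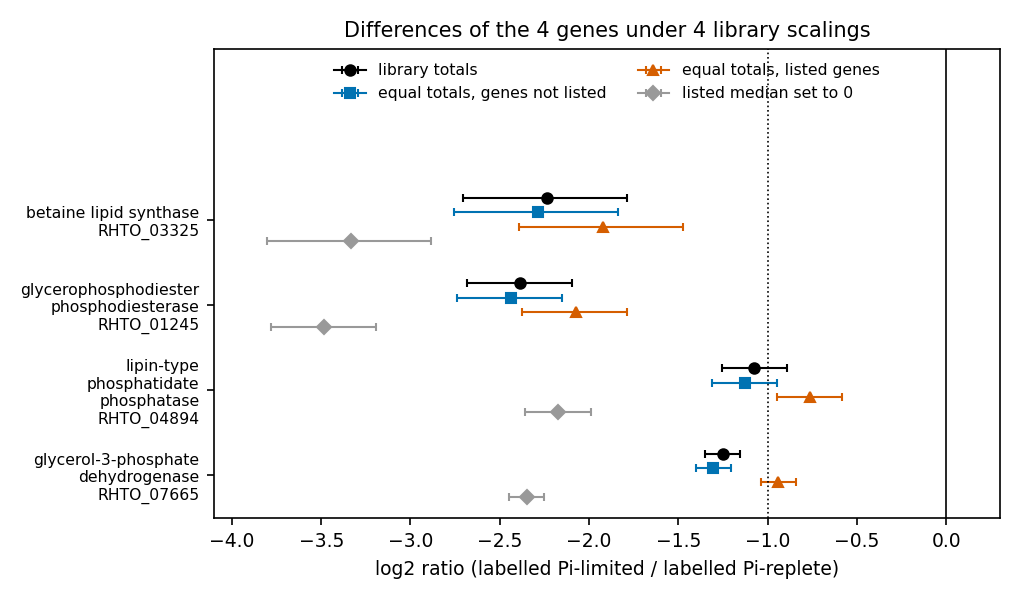
Log2 ratio (labelled Pi-limited over labelled Pi-replete) of the 4 genes with libraries scaled by their totals, by the genes that are not listed, by the listed genes and by the listed median. Bars are exact 95% intervals of counting error, the solid line marks no difference and the dotted line a 2-fold difference. Every point is left of the solid line, and lipin and glycerol-3-phosphate dehydrogenase pass to the right of the dotted line with equal totals over the listed genes (-0.76 and -0.94).

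Other listed genes of the same pathways were gathered in 5 lists of search words over the descriptions, which hold 39 genes, 18 higher and 21 lower in the Pi-limited-labelled library, where 41.7% of all listed genes were lower. Genes that differed less than 2-fold are not analysed here. Glycerol use was represented by the dehydrogenase and 1 other gene. Glycerol kinase (RHTO_07649), which phosphorylates glycerol to the glycerol 3-phosphate that the dehydrogenase oxidises, had 564 counts and 53.9 RPKM in the Pi-limited-labelled library and 1214 counts and 121 RPKM in the Pi-replete-labelled library. It was 2.25-fold (2.03 to 2.49) lower in the Pi-limited-labelled library. The difference of the dehydrogenase was 1.06 times that of the kinase (0.937 to 1.20), so that the enzymes of this short route differed by amounts not told apart by counting error.

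In phospholipid breakdown, 2 listed genes were higher and 5 were lower in the Pi-limited-labelled library, with a median log2 ratio of -1.26. That is 71.4% lower, beside 41.7% lower and a median of 1.10 over all listed genes. With equal totals over the listed genes, 2 of them were at least 2-fold lower. Besides the phosphodiesterase, a pair of phospholipases D, which cut the headgroup from phospholipids and leave phosphatidate, were lower there. RHTO_04526 had 244 counts in the Pi-limited-labelled library and 560 counts in the Pi-replete-labelled library, 2.40-fold lower (2.06 to 2.80). RHTO_05769 had 511 counts in the Pi-limited-labelled library and 1047 counts in the Pi-replete-labelled library, 2.14-fold lower (1.92 to 2.38). A gene described as an N-acyl-phosphatidylethanolamine phospholipase D and also as an RNA exonuclease (RHTO_05588) was 2.44-fold lower (2.07 to 2.89). The other 2 members had the other direction. RHTO_04785, a lysophospholipase by KEGG with an AMP-binding protein as its best BLAST hit, had 1531 counts in the Pi-limited-labelled library and 256 counts in the Pi-replete-labelled library. RHTO_03155, whose best hit is a phospholipase A-2-activating protein, had 439 counts in the Pi-limited-labelled library and 42 counts in the Pi-replete-labelled library. A second gene of that description (RHTO_03045) went the other way and was 3.00-fold lower (2.68 to 3.35). Proteins of that name are known in yeast for ubiquitin handling (Doa1), and both matched by wording.

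Glycerolipid and phospholipid synthesis had 6 members higher and 6 lower, a share near the 41.7% lower over all listed genes. Its median log2 ratio of -0.02 (1.10 over all listed genes) falls in the range under 2-fold, where no gene is listed. That median follows from the even split and describes no gene. One of the 6 lower members is RHTO_05588, given above, which is in both lists, and without it the count is 6 higher and 5 lower (a count made after seeing the data). Among the 6 members for which every KEGG entry matched the list, 3 were higher and 3 lower, a subset chosen after seeing the data. Lipin and a pair of genes described as phosphatidylserine decarboxylase, which makes phosphatidylethanolamine, were lower in the Pi-limited-labelled library. RHTO_04759 had 227 counts in the Pi-limited-labelled library and 489 counts in the Pi-replete-labelled library, 2.25-fold lower (1.92 to 2.65). RHTO_01497, a short gene of 246 bases, had 80 counts in the Pi-limited-labelled library and 166 counts in the Pi-replete-labelled library, 2.17-fold lower (1.65 to 2.87).

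The higher ones were a CDP-diacylglycerol synthase and a pair described as ethanolaminephosphotransferases. CDP-diacylglycerol synthase (RHTO_06970, EC 2.7.7.41) uses the same substrate as lipin, phosphatidate, but turns it into CDP-diacylglycerol for phospholipids. It had 185 counts in the Pi-limited-labelled library and 87 counts in the Pi-replete-labelled library, 2.04-fold higher (1.57 to 2.66), the opposite direction to lipin. The ethanolaminephosphotransferase RHTO_06571, which by its EC number joins phosphoethanolamine to diacylglycerol, had 358 counts in the Pi-limited-labelled library and 132 counts in the Pi-replete-labelled library, 2.60-fold higher (2.12 to 3.19). RHTO_03574 is described by BLAST as GPI7, which works on cell wall anchors and not on membrane phospholipids, and was 2.46-fold higher (1.80 to 3.41). After the listed median was set to 0, none of the 6 higher members of the list was 2-fold higher, and with equal totals over the listed genes none of the 6 lower ones was 2-fold lower. Scaling cancels in the ratio of the differences of lipin and the CDP-diacylglycerol synthase, but not in their directions. The log2 ratio of the synthase, 1.03, is smaller in size than the shift of -1.10 that sets the listed median to 0. Its direction opposite to lipin thus depends on scaling. The other 5 members that are not named above carry further descriptions. Of 3 genes described as 1-acylglycerone phosphate reductases, among other reductases, RHTO_05740 was 2.24-fold lower (2.17 to 2.30), whereas RHTO_04246 and RHTO_02969 were 3.27- and 2.67-fold higher. RHTO_05174, described as phosphatidylserine decarboxylase and as a ubiquitin ligase, was 2.13-fold lower, and RHTO_01519, described as a lysophospholipid acyltransferase and as CTR9, was 3.21-fold higher.

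Sterol and sphingolipid genes were listed together with the betaine lipid synthase as lipids without phosphorus. Of the 11 listed genes, 8 were higher and 3 were lower in the Pi-limited-labelled library, with a median log2 ratio of 1.14. This is 27.3% lower, beside 41.7% lower and a median of 1.10 over all listed genes, so that the balance of the list is near that of the table. The other 2 lower members (RHTO_03685 and RHTO_05522) are described as sterol glucosyltransferases and also as sugar transporters. The higher ones were led by sterol 24-C-methyltransferase of ergosterol synthesis (RHTO_00856), with 1376 counts in the Pi-limited-labelled library and 439 counts in the Pi-replete-labelled library. Delta14-sterol reductase (RHTO_02033, 2.46-fold, 1.99 to 3.05) and delta24(24(1))-sterol reductase (RHTO_07628, 2.05-fold, 1.84 to 2.30), of the same pathway, were also higher. For sphingolipids, which are built on ceramide in place of diacylglycerol and which in fungi include members with and without phosphorus, an acyl-CoA-dependent ceramide synthase (RHTO_01531) had 828 counts in the Pi-limited-labelled library and 386 counts in the Pi-replete-labelled library, 2.05-fold higher (1.82 to 2.32). A gene described as 3-dehydrosphinganine reductase (RHTO_07838) was 2.21-fold higher (1.77 to 2.77). Lathosterol oxidase (RHTO_05229), a sterol carrier protein 2 (RHTO_03609) and a cytochrome P450 described among others as sterol 14-demethylase (RHTO_00164) were 2.22- to 2.44-fold higher. With the listed median set to 0, none of the 8 was 2-fold higher. The log2 ratios of RHTO_07628 and RHTO_01531, 1.04 each, are smaller in size than that shift of -1.10. Their direction thus depends on scaling.

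**Figure D4:**
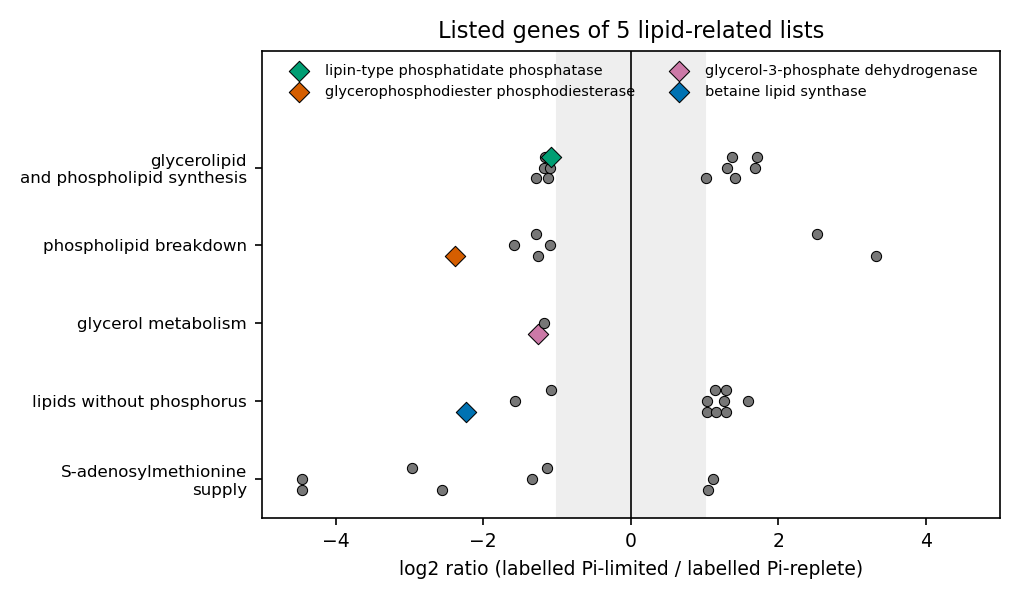
Log2 ratio (labelled Pi-limited over labelled Pi-replete) of the listed members of 5 lipid-related lists, one point per gene, with the 4 genes as coloured diamonds. The shaded band is the range under 2-fold in which no gene is listed, and vertical position within a list has no meaning. The synthesis list divides 6 to 6, the diamond of the betaine lipid synthase lies on the left of its list, which has 8 genes on the right, and no member of the glycerol list is on the right.

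The betaine lipid headgroup comes from S-adenosylmethionine, and genes around that metabolite went both ways, with 2 members higher and 6 lower in the Pi-limited-labelled library and a median log2 ratio of -1.95. The share lower was 75.0%, beside 41.7% and a median of 1.10 over all listed genes. The 6 lower ones make or break down cystathionine or make homocysteine, and are as much part of sulfur amino acid synthesis as of methyl group supply. Cystathionine gamma-lyase (RHTO_01498), which turns cystathionine into cysteine, had 287 counts in the Pi-limited-labelled library and 1613 counts in the Pi-replete-labelled library, 5.87-fold lower (5.17 to 6.68). Cystathionine gamma-synthase (RHTO_00815) was 2.53-fold lower (2.29 to 2.81). RHTO_05589, described as cystathionine beta-lyase and as cystathionine gamma-synthase, was 21.9-fold lower, the cystathionine beta-lyase RHTO_02122 was 2.20-fold lower, and the O-acetylhomoserine (thiol)-lyase RHTO_02616 was 21.8-fold lower. Adenosylhomocysteinase (RHTO_01695), which clears the product left after S-adenosylmethionine gives up its methyl group, was higher instead, with 8465 counts in the Pi-limited-labelled library and 3930 counts in the Pi-replete-labelled library (2.06-fold, 1.99 to 2.14). Methylenetetrahydrofolate reductase (RHTO_04196), which supplies methyl groups for methionine, was 2.16-fold higher (2.03 to 2.31). The log2 ratio of RHTO_01695, 1.04, is smaller in size than the shift of -1.10 that sets the listed median to 0. The direction of RHTO_01695 thus depends on scaling. The log2 ratio of RHTO_04196, 1.11, is barely larger than that shift.

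Neighbouring genes were read from the RefSeq gene table of strain NP11 (assembly RHOziaDV1.0), which gave all 1402 identifiers. Within 3 places either side of the 4 genes it has 24 genes, of which 3 (12.5%) are listed, beside 17.6% of all genes tested. The gene next to the betaine lipid synthase is an alpha-aminoadipic semialdehyde synthase of lysine metabolism (RHTO_03324), with 24 counts and 1.38 RPKM in the Pi-limited-labelled library and 371 counts and 22.3 RPKM in the Pi-replete-labelled library. It was 16.1-fold lower (10.7 to 25.5) in the Pi-limited-labelled library, in the same direction as its neighbour. Without strand information, reads of adjoining genes that overlap cannot be told apart. Near lipin and the dehydrogenase the 2 listed neighbours had the other direction. RHTO_04893, next to lipin, had 255 counts in the Pi-limited-labelled library and 96 counts in the Pi-replete-labelled library, and RHTO_07668, near the dehydrogenase, had 55 counts in the Pi-limited-labelled library and 21 counts in the Pi-replete-labelled library. No neighbour of the phosphodiesterase is listed. Glycerol kinase lies 16 places from the dehydrogenase.

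The listed genes with the most similar levels were found by the distance in log2 RPKM over the 2 libraries, a measure on which many genes come close. For the phosphodiesterase they were RHTO_02424 (distance 0.069), described as an elongation factor or peptide chain release factor, the L-lactate dehydrogenase RHTO_02425 (0.087) and the ADP-ribose pyrophosphatase RHTO_05022 (0.106). For the betaine lipid synthase they were a monocarboxylate transporter (RHTO_04033, 0.081), a gene with a proteophosphoglycan best hit (RHTO_02211, 0.116) and a gene whose best hit is an autotransporter-associated repeat protein (RHTO_05276, 0.124). The carnitine O-acetyltransferase RHTO_01341 was closest to lipin (0.057). After it came a gene described both as a protein kinase and as a tRNA methyltransferase (RHTO_02667, 0.172) and the phospholipase D RHTO_04526 (0.174). Closest to the dehydrogenase was a mitochondrial carnitine carrier (RHTO_04922, 0.154), before 3-oxoacid CoA-transferase (RHTO_06125, 0.194) and a gene described both as ribonuclease Z and as a proteophosphoglycan (RHTO_04457, 0.209).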

How the data were processed

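RNA of 1 wild-type chemostat sample per condition was sequenced from total RNA with standard Illumina libraries, per the labels' protocols. The submitters' processing notes name Cufflinks and DESeq, with neither role nor version. Aligner, build and strand use: not given in the sources used here. Per the file headers, the authors' deposited table holds a raw count per gene, RPKM values, the log2 ratio (labelled Pi-replete over labelled Pi-limited), a p-value and an FDR. Per the deposited values, it was filtered at 2-fold and an FDR of 0.001, and 99.4% of lengths are multiples of 3, so they are coding lengths.

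Library totals (5892590 labelled Pi-limited, 5641377 labelled Pi-replete) and the 7970 genes tested were recovered from the deposited columns. Ratios were recomputed as labelled Pi-limited over labelled Pi-replete, with exact 95% intervals of the conditional binomial (Clopper-Pearson). Levels have exact Poisson intervals, and ratios of 2 genes' differences a conditional odds ratio (Python 3.11.15, SciPy 1.17.1). No p-value was computed here, since a condition has 1 library. On simulated data of 1402 genes for this comparison, 95.9% of intervals held the true ratio. The simulated counts had counting error only, with no spread between cultures and no 2-fold filter. The simulation therefore checks the interval calculation alone.

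The 4 genes, the 5 lists and the rules for named genes were chosen with earlier results of these data known. The text names the 4 genes, list members with 50 or more counts in either library and a description of their role, listed neighbours within 3 places, and the 3 described genes nearest in level. No sequences are shown. Other scalings, pseudocounts and list subsets are given in the closing section.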

Additional observations from a re-analysis of the deposited data

How the results depend on the processing

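For the 4 genes, 3 other scalings and RPKM pseudocounts of 1 and 0.1 were tried. None of these could turn the direction of a listed lower gene, so only sizes are compared. Of the 20 values, 13 stayed within the counting interval. With equal totals over the listed genes, the log2 ratio of RHTO_01245 was -2.07, of RHTO_04894 -0.76 and of RHTO_07665 -0.94. With the listed median set to 0, it was -3.48 for RHTO_01245, -3.33 for RHTO_03325, -2.17 for RHTO_04894 and -2.35 for RHTO_07665. The shift of that centring follows from a table with no gene under 2-fold.

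List counts changed by more than 1.5 times in 16 of 86 values, because a shift or subset can only remove members. With equal totals over the listed genes, 0 synthesis members, 2 breakdown members and 0 glycerol members were at least 2-fold lower. With the listed median set to 0, 0 members were at least 2-fold higher in the synthesis, phosphorus-free and S-adenosylmethionine lists. Equal totals over genes not listed left 1 S-adenosylmethionine member at least 2-fold higher. When KEGG and BLAST both had to match, 1 glycerol member, 0 phosphorus-free members and 3 S-adenosylmethionine members were lower and 1 phosphorus-free member was higher, and the synthesis and breakdown lists had no member left. With every KEGG entry matching, the synthesis list had 3 higher and 3 lower, breakdown 1 higher and phosphorus-free 1 lower. Without the 4 genes, 1 glycerol member was lower. No paired analysis was possible because each condition has 1 library. The 50 counts of RHTO_03325 in the Pi-limited-labelled library set the widest interval of the 4 genes.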
